A study of Mus musculus with 14 samples.

Results

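The Notch pathway genes described here are 8 genes of mouse T-cell acute lymphoblastic leukaemia: the receptors Notch1, Notch2 and Notch3, and the Notch targets Hes1, Dtx1, Nrarp, Ptcra and Myc. They were taken by gene symbol from a table of raw counts that lists 12421 genes, in which each of the 8 has 1 entry, and their levels were read in all 14 libraries. The leukaemias are of the VTL model and were induced by the oncogene Lmo2. Thymocytes had first been given by vein to C57BL/6-Ly5.1;FVB F1 mice after sublethal irradiation, and cryopreserved cells of each leukaemia were then transplanted into C57BL/6-Rag1-/- recipients. RNA came from donor cells of these recipients' spleens, sorted as positive for both CD45.1 and CD45.2.

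By their Lmo2 status the labels sort the 8 tumours into 3 classes. The 2 dependent tumours, VTL-19 and VTL-24, have 1 library each, without doxycycline (Dox), and dependent tumours with Dox were not analysed here. The 3 evolving tumours (VTL-25, VTL-153 and VTL-21) and the 3 independent tumours (VTL-44, VTL-33 and VTL-81) have 1 library without Dox and 1 from mice that received Dox in food at 600 mg/kg. All groups share the VTL origin and the Rag1-deficient host. The labels give neither the ages of the mice nor the direction in which Dox acts on the Lmo2 transgene. Each tumour is 1 transplanted line with 1 library per state, so n counts tumours. Whether the evolving tumours are separate leukaemias was not tested. VTL-153 and VTL-25 were close to each other, and all 3 shared their leading beta segments without Dox, as given below. The evolving class may hold fewer than 3 independent tumours.

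Notch receptors are single-pass membrane proteins. A ligand of the Delta or Jagged family on a neighbouring cell exposes the receptor to cleavage by an ADAM protease and then by gamma-secretase. The released intracellular part enters the nucleus and joins RBPJ and a Mastermind-like coactivator at target genes. Thymocytes need Notch1 for T lineage commitment and for passage through beta selection, and activating mutations of Notch1 are frequent in this leukaemia. Ikaros can bind near the same sites and is known to restrain several Notch targets in thymocytes. Counts per gene report transcript levels and show neither cleavage of a receptor nor its mutations.

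Upstream sequence is shown for Ptcra and Nrarp, whose levels differed most between libraries among the 8 genes. It is the 250 bases before the annotated start, 5′ to 3′ on the gene's strand, from RefSeq on GRCm38.p6, which held a promoter entry for 6 of the 8 genes. Capitals mark TGGGAA, the core letters of an RBPJ site, which also hold the GGGAA core read by Ikaros.
Ptcra upstream, chr17:46763713-46763962, minus strand: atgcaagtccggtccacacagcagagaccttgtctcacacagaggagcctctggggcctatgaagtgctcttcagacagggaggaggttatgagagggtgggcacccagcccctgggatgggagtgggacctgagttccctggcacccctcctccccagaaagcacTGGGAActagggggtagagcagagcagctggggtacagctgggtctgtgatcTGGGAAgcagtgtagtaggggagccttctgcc
Nrarp upstream, chr2:25180508-25180757, plus strand: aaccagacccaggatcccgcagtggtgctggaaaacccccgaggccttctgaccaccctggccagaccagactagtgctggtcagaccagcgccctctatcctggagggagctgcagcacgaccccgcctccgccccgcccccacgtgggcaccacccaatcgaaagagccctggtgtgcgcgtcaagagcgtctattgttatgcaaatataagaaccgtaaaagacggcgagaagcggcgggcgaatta
The search covered both strands from 250 bases before to 50 bases after the start. Ptcra held TGGGAA at −84 to −79 and at −32 to −27, counted from the start, and the entries of Notch1, Notch2, Notch3, Dtx1 and Nrarp held none. Of 32851 RefSeq promoters of the same length, 25.6% held TGGGAA at least once. Ptcra also held the E-box CAGCTG at −60 to −55, −49 to −44 and 21 to 26, and Nrarp held it at 32 to 37, against 16.3% of all promoters. The E-box CAGGTG and the longer GTGGGAA, found in 20.2% and 6.38% of all promoters, were in none of the 6 entries. These matches describe letters only. They show no binding, and a missing match says nothing about the factor.

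The 14 libraries held between 18214415 and 24048281 counts in the listed genes. All 8 T lineage markers were present in every library, with summed levels of 2988 to 5157 CPM (counts scaled to a common library size with TMM factors). Summed myeloid markers ranged from 16.5 to 2020 CPM. Of 9 B cell markers, Cd79b and Blnk are in the table, at 0.0506 to 28.9 CPM and 0.149 to 7.17 CPM, and their sum was 16.1 to 18.7 CPM in evolving tumours without Dox, 0.961 to 29.0 CPM with Dox and 0.421 to 1.94 CPM in dependent tumours. Summed erythroid markers ranged from 0.911 to 132.7 CPM. Pecam1, Col1a1, Col1a2 and Pdgfrb are in the table, of 9 stromal and endothelial markers. They summed to 142 to 164 CPM in dependent, 155 to 270.1 CPM in evolving and 257 to 902 CPM in independent tumours. Without Dox, Pdgfrb averaged 4.81, 34.8 and 240.5 CPM in these classes and Col1a1 10.7, 2.86 and 14.5 CPM. Pecam1 stood at 118 to 167 CPM in all libraries. With Dox in the evolving tumours 2 of the 4 had higher and 2 lower estimates. Col1a2, a collagen gene at 0 counts in 1 library, was called higher there, where 2.13% of all genes were called. It went from 0.0767 ± 0.0751 to 5.77 ± 8.94 CPM (SD, n = 3, adjusted p = 0.0247 by edgeR). Col1a1, another collagen gene, went from 2.86 ± 2.31 to 1.56 ± 2.01 CPM. The part of these markers in the results was not tested. In all 6 tumours with both libraries, Lmo2 stood lower under Dox, with 303 to 708 CPM without Dox and 0.198 to 3.24 CPM with it in the evolving class. Before Dox, Lmo2 levels of the independent class were 600.3 CPM for VTL-33, 27.2 CPM for VTL-81 and 9.28 CPM for VTL-44. VTL-153 and VTL-25 without Dox were close to each other, with 3 genes over 20 CPM in a single one of them and under 0.5 CPM in its counterpart. All remaining pairs of tumours without Dox differed by 21 to 130 such genes. The V segment with the most beta chain counts in VTL-25 was Trbv24 before Dox but Trbv5 under Dox, so its libraries may hold different clones. Without Dox all 3 evolving tumours had Trbv24 first and Trbv13-1 next. Trbv24 held 77.5% of beta segment counts in VTL-153, 78.7% in VTL-25 and 84.6% in VTL-21. It was also first in VTL-33 (72.4%), an independent tumour. Whether tumours with the same leading segment are related was not tested. Estimates without VTL-153 and without VTL-25 are given for the Dox changes of Dtx1, Nrarp, Ptcra, Myc, Il2ra, Il7r and Trib2.

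Notch1 was the most abundant of the 8 genes by length. Levels are compared between genes as CPM per kilobase of exon, with the SD over 14 libraries. Notch1 had 148.9 ± 34.1, Dtx1 125 ± 47.3, Ptcra 102 ± 62.0, Notch3 70.4 ± 30.6, Myc 67.95 ± 28.95, Hes1 45.6 ± 10.4, Nrarp 8.99 ± 6.43 and Notch2 3.02 ± 1.06 CPM per kilobase. Of the neighbours in this order only Hes1 and Nrarp had ranges over libraries that did not overlap. Among the receptors, Notch1 stood above Notch3 and Notch3 above Notch2 in 14 of 14 libraries.

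The 8 genes differed in how much they varied across libraries. The highest library exceeded the lowest 1.90-fold for Notch1, 2.24-fold for Hes1, 2.68-fold for Dtx1, 3.35-fold for Notch2 and 4.05-fold for Notch3. The ratio was 9.83 for Myc, 35.5 for Nrarp and 37.3 for Ptcra. The SD of log2 CPM was 0.34 for Notch1 and 0.33 for Hes1, below the median of all genes at 0.37, and 1.62 for Nrarp and 1.30 for Ptcra. Of all genes, 87.8% had a smaller SD than Nrarp and 83.5% a smaller SD than Ptcra.

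**Figure D1:**
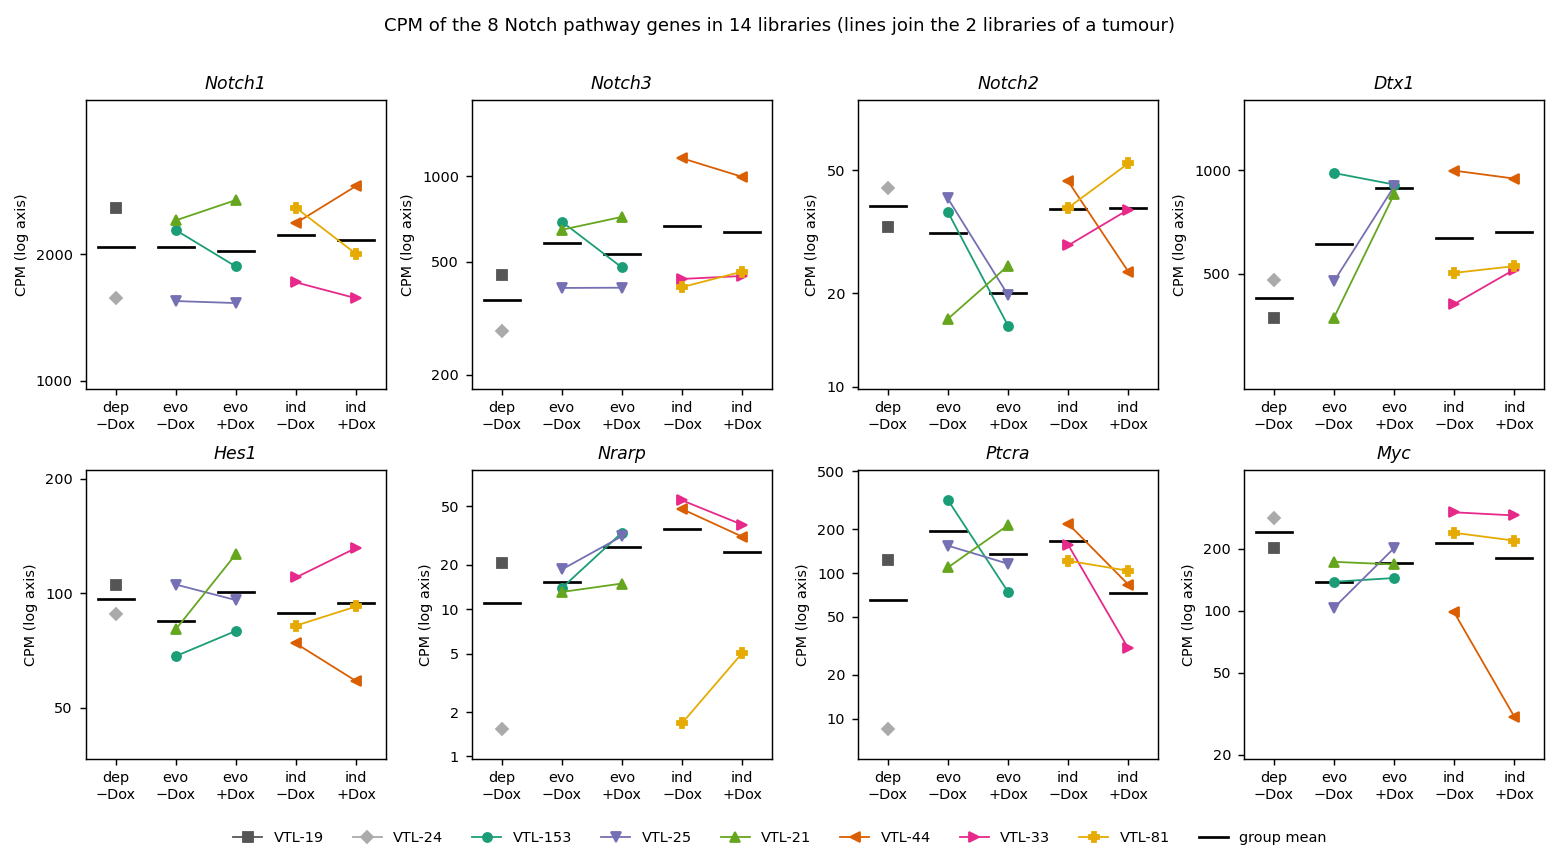
CPM (log axis) of the 8 genes in each library by class and Dox. Symbols are tumours, lines join the 2 libraries of a tumour and bars are group means. Nrarp is lowest in VTL-24 (1.54 CPM) and VTL-81 (1.68 CPM without Dox), and Ptcra is lowest in VTL-24 (8.51 CPM).

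Notch1 (ENSMUSG00000026923; mm10 chromosome 2, 26457903 to 26516663, minus strand) encodes the main Notch receptor of early thymocytes. It stood at 2584 CPM in VTL-19 and 1572 CPM in VTL-24 among the dependent tumours. The evolving tumours, without and then with Dox, stood at 2286 and 1872 CPM in VTL-153, 1549 and 1532 CPM in VTL-25, and 2410 and 2694 CPM in VTL-21. The independent tumours had 2375 and 2910 CPM in VTL-44, 1716 and 1573 CPM in VTL-33, and 2583 and 2006 CPM in VTL-81. VTL-24, VTL-25 and VTL-33 were the lower tumours of their classes, and the ranges of all 3 classes overlapped. The log2 change with Dox was −0.05 in the evolving tumours (SE 0.18, 95% interval −0.48 to 0.38) and −0.07 in the independent tumours (SE 0.18, interval −0.50 to 0.36). Changes and differences are log2 estimates from edgeR's quasi-likelihood test, with n = 3 tumours in the evolving and independent classes and n = 2 in the dependent class.

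Notch3 (ENSMUSG00000038146; chromosome 17, 32120820 to 32166852, minus strand) encodes a receptor that is itself a Notch1 target in T cell precursors. It stood at 449.6 CPM in VTL-19 and 285 CPM in VTL-24. Without and with Dox the evolving tumours had 692 and 477 CPM (VTL-153), 404 and 405 CPM (VTL-25), and 647 and 719 CPM (VTL-21). The independent tumours had 1156 and 995 CPM (VTL-44), 435 and 445 CPM (VTL-33), and 407 and 461 CPM (VTL-81). VTL-44 was the highest tumour in both states, above every other library. The difference of independent from dependent tumours without Dox was 0.86 (SE 0.51, interval −0.34 to 2.06, adjusted p = 0.516 by edgeR), and that of evolving from dependent tumours 0.66 (SE 0.51, interval −0.53 to 1.86, adjusted p = 1). With Dox it changed by −0.13 (SE 0.17) in evolving and −0.00 (SE 0.17) in independent tumours, with intervals of −0.54 to 0.28 and −0.41 to 0.41.

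Notch2 (ENSMUSG00000027878; chromosome 3, 98013527 to 98150361, plus strand) encodes a receptor known for its role in marginal zone B cells and in myeloid cells. It stood at 32.9 CPM in VTL-19 and 43.8 CPM in VTL-24. Without and with Dox, VTL-153 had 36.7 and 15.7 CPM, VTL-25 40.6 and 19.8 CPM, and VTL-21 16.5 and 24.6 CPM. The values were 46.1 and 23.5 CPM in VTL-44, 28.6 and 37.3 CPM in VTL-33, and 37.8 and 52.6 CPM in VTL-81. It was thus lower with Dox in 3 of the 6 tumours and higher in the other 3. With Dox, independent tumours averaged 37.8 ± 14.6 CPM and evolving tumours 20.02 ± 4.42 CPM (SD, n = 3 each), and their ranges overlapped at VTL-44. That difference was 0.91 (SE 0.33, interval 0.11 to 1.70), with an unadjusted p of 0.0314 and an adjusted p of 0.974 by edgeR, and it did not pass. It was 0.61 without VTL-81.

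Summed myeloid markers moved in the same direction as Notch2 within each of the 6 tumours. Where Notch2 was lower with Dox, VTL-44 had 1442 CPM of these markers without and 789.7 CPM with Dox, VTL-153 had 160.4 and 19.3 CPM, and VTL-25 had 215 and 24.1 CPM. Where Notch2 was higher, VTL-81 had 178 and 2020 CPM, VTL-33 had 67.2 and 166 CPM, and VTL-21 had 16.5 and 173 CPM. All 10 markers of this list were listed, and Elane was the one at 0 counts in a library, in 1 of 14. S100a8 and S100a9 reached the highest levels, 591 and 691 CPM, and the markers did not all move alike. With Dox, 3 of the 10 had positive and 7 negative estimates in evolving tumours, and 9 positive and 1 negative in independent tumours. Evolving means went from 46.8 to 8.98 CPM for S100a9 and from 7.66 to 15.9 CPM for Itgam. Over all tested genes, 479 of 12360 (3.88%) had the direction of the sum in all 6 tumours. The part of the myeloid markers in the values of Notch2 was not tested. In bulk RNA of sorted cells, more or fewer cells of a type and more or less RNA per cell cannot be told apart. Hes1, Dtx1 and Notch3 shared the direction of the myeloid sum in 5 of 6 tumours. Ptcra shared it in 4, Notch1 and Nrarp in 3 and Myc in 1. The share of all genes was counted for 6 of 6 tumours alone, so nothing is read from these lower counts.

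Dtx1 (ENSMUSG00000029603; chromosome 5, 120680202 to 120711927, minus strand) encodes Deltex1, a ubiquitin ligase that is induced by Notch and acts on the pathway in return. It stood at 371 CPM in VTL-19 and 479 CPM in VTL-24. Its levels without and with Dox were 980.3 and 908 CPM in VTL-153, 476 and 896 CPM in VTL-25, and 373 and 851 CPM in VTL-21. The independent tumours had 996 and 945 CPM in VTL-44, 409 and 515 CPM in VTL-33, and 503 and 526 CPM in VTL-81. The 14 libraries fell into 8 at or below 526 CPM and 6 at or above 851 CPM, with none between. The high ones were all 3 evolving tumours with Dox, VTL-153 without Dox and VTL-44 in both states. VTL-153 and VTL-25 without Dox, close over all genes, lay on different sides of this gap.

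In the evolving tumours Dtx1 averaged 609.8 ± 325 CPM without and 885 ± 30.2 CPM with Dox (SD, n = 3), and it was higher with Dox in VTL-25 and VTL-21. The log2 change was 0.67 (SE 0.26, interval 0.06 to 1.27), with an unadjusted p of 0.0352 and an adjusted p of 0.254 by edgeR. It did not pass. The estimate was 1.04 without VTL-153, 0.54 without VTL-25 and 0.38 without VTL-21, and the adjusted p was 0.0643 by DESeq2, the smallest of any of the 8 genes over all comparisons and alternatives. In the independent tumours the change was 0.11 (SE 0.25, interval −0.49 to 0.70). The difference between the responses was −0.56 (SE 0.36, interval −1.41 to 0.29, adjusted p = 0.7496).

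Hes1 (ENSMUSG00000022528; chromosome 16, 30064384 to 30067796, plus strand) encodes a repressor of the basic helix-loop-helix family and is a classical RBPJ target. It stood at 105 CPM in VTL-19 and 88.5 CPM in VTL-24. The evolving values without and with Dox were 68.4 and 79.7 CPM in VTL-153, 106 and 96.03 CPM in VTL-25, and 80.4 and 127 CPM in VTL-21. It had 73.9 and 58.8 CPM in VTL-44, 110.1 and 132 CPM in VTL-33, and 82.3 and 92.4 CPM in VTL-81. VTL-33 with Dox was the highest library and VTL-44 with Dox the lowest, both of the same group. The change with Dox was 0.25 in evolving (SE 0.19, interval −0.21 to 0.70) and 0.03 in independent tumours (SE 0.19, interval −0.42 to 0.48).

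Nrarp (ENSMUSG00000078202; chromosome 2, 25180758 to 25183339, plus strand) encodes an ankyrin repeat protein that Notch induces and that limits the Notch complex. It stood at 20.4 CPM in VTL-19 and 1.54 CPM in VTL-24. Among evolving tumours, it had 13.9 CPM without and 33.1 CPM with Dox in VTL-153, likewise 18.6 and 31.3 CPM in VTL-25, and 13.1 and 14.9 CPM in VTL-21. It had 47.9 and 31.1 CPM in VTL-44, 54.8 and 37.5 CPM in VTL-33, and 1.68 and 5.03 CPM in VTL-81. The 3 lowest libraries were VTL-24 and both of VTL-81, and 33, 39 and 91 counts lay behind them. VTL-24 and VTL-81 are a dependent and an independent tumour. Both had Trbv2 in over 99.9% of beta segment counts, and 118 genes still separated them by the same limits of 20 and 0.5 CPM. Trbv2 was also the leading segment of VTL-19, at 94.1%.

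Nrarp was the single gene of the 8 that was higher with Dox in all 3 evolving tumours. Its change there was 0.73 (SE 0.44, interval −0.32 to 1.78, adjusted p = 0.488 by edgeR), 0.46 without VTL-153 and 0.73 without VTL-25. In the independent tumours the estimate was 0.05 (SE 0.45, interval −1.02 to 1.13), lower with Dox in VTL-44 and VTL-33 and higher in VTL-81, and it was −0.59 without VTL-81. Without Dox the independent tumours averaged 34.8 ± 28.9 CPM, the evolving 15.2 ± 2.98 CPM and the dependent 11.0 ± 13.4 CPM (SD). The difference of independent from dependent tumours was 1.66 (SE 1.40, interval −1.62 to 4.95, adjusted p = 0.654). That estimate was 4.49 without VTL-19 and 0.77 without VTL-24, so the dependent library that remained decided it.

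Ptcra (ENSMUSG00000036858; chromosome 17, 46755663 to 46763712, minus strand) encodes the pre-T alpha chain, which pairs with a new T cell receptor beta chain at beta selection. It stood at 122.5 CPM in VTL-19 and 8.51 CPM in VTL-24. VTL-153 had 317 CPM without and 74.4 CPM with Dox, VTL-25 had 154 and 116 CPM, and VTL-21 had 109 and 213 CPM. It had 218 and 83.4 CPM in VTL-44, 156 and 30.5 CPM in VTL-33, and 121.5 and 104 CPM in VTL-81. VTL-24 lay below every other library. The level was lower with Dox in 5 of 6 tumours, with VTL-21 the exception.

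Among independent tumours Ptcra was lower with Dox in 3 of 3, by log2 differences of −2.36 in VTL-33, −1.39 in VTL-44 and −0.23 in VTL-81. The group estimate of −1.32 (SE 0.62, interval −2.82 to 0.17) had an unadjusted p of 0.0737 and an adjusted p of 1 by edgeR and did not pass. It was −0.82 without VTL-33 and −1.87 without VTL-81. In the evolving tumours the estimate was −0.50 (SE 0.64, interval −2.04 to 1.03), it turned to 0.26 without VTL-153, and it was −0.56 without VTL-25. Without Dox, evolving tumours averaged 193 ± 109 CPM, independent 165 ± 48.9 CPM and dependent 65.5 ± 80.6 CPM (SD). The differences from dependent tumours were 1.56 for evolving (SE 0.98, adjusted p = 1) and 1.34 for independent tumours (SE 0.97, adjusted p = 0.598). They were 0.66 and 0.43 without VTL-24, and 4.51 and 4.28 without VTL-19.

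Myc (ENSMUSG00000022346; chromosome 15, 61985391 to 61990374, plus strand) encodes a growth-promoting transcription factor that Notch1 drives through a distal enhancer in this leukaemia. It stood at 201 CPM in VTL-19 and 281 CPM in VTL-24. VTL-153 had 138 CPM without and 144 CPM with Dox, VTL-25 had 103 and 201 CPM, and VTL-21 had 173 and 168 CPM. It had 97.95 and 30.5 CPM in VTL-44, 300.2 and 289.8 CPM in VTL-33, and 239 and 219 CPM in VTL-81. VTL-44 was the lowest tumour in both states, although it was the highest for Notch3.

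Myc was the single gene of the 8 whose ranges did not overlap in a comparison of classes. Without Dox the evolving tumours (138 ± 34.6 CPM) all lay below the dependent tumours (241 ± 56.4 CPM), with a difference of −0.80 (SE 0.44, interval −1.84 to 0.24, adjusted p = 1 by edgeR). It was −0.81 without VTL-153 and −0.64 without VTL-25. Ranges did not overlap in either direction for 19.5% of all tested genes in that comparison. Independent tumours exceeded evolving tumours by 0.62 (SE 0.40, interval −0.32 to 1.57, adjusted p = 0.501), and by 0.97 without VTL-44 and 0.29 without VTL-33. With Dox Myc was lower in 3 of 3 independent tumours, at −0.60 (SE 0.36, interval −1.47 to 0.27, adjusted p = 1), and the estimate was −0.09 without VTL-44. The change in evolving tumours was 0.32 (SE 0.36, interval −0.53 to 1.17), with 0.45 without VTL-153 and 0.01 without VTL-25.

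**Figure D2:**
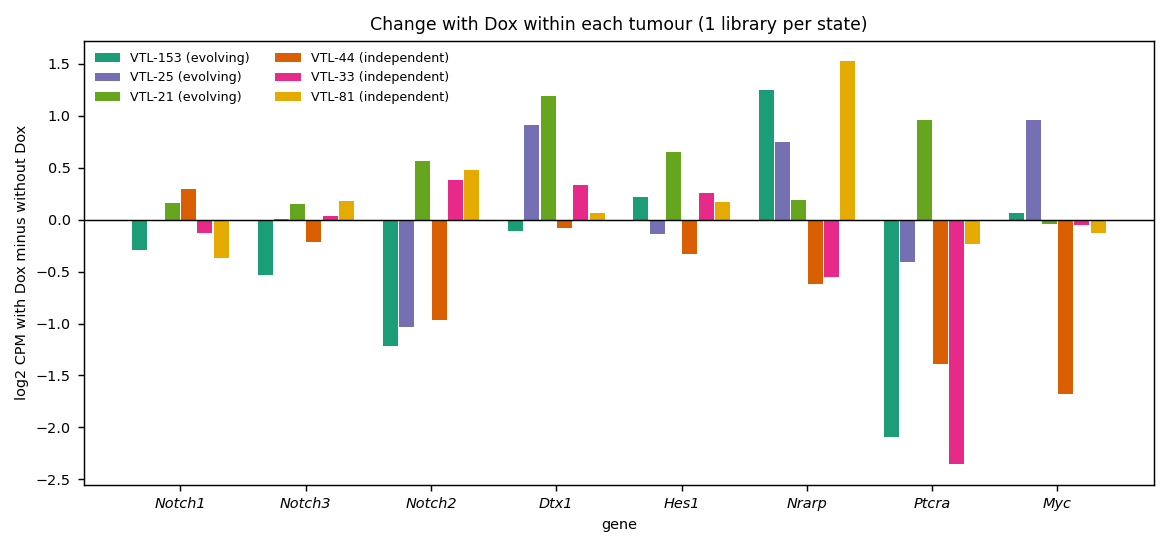
Log2 CPM with Dox minus without Dox for each gene, 1 bar per tumour. Each bar compares 2 single libraries. Ptcra is below 0 in every tumour but VTL-21, and Notch2 is below 0 in VTL-153, VTL-25 and VTL-44 and above 0 in the other 3.

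Set against all genes, no comparison singled out the 8. All 8 had enough counts to be tested in each of the 7 comparisons, and edgeR called 0 of 8 in each at an adjusted p under 0.05. With Dox in the evolving tumours 2.13% of all genes were called (263 of 12360), and in the independent tumours 0%. For the difference between these responses 0.121% were called. Without Dox the shares were 0% for evolving against dependent, 0.0972% for independent against dependent and 0.259% for independent against evolving tumours. With Dox it was 0% for independent against evolving tumours. The unadjusted p was under 0.05 for 1 of the 8 with Dox in the evolving tumours (Dtx1), where 16.7% of all genes were. It was so for 1 in independent against evolving tumours with Dox (Notch2), where 4.74% of all genes were. In the other 5 comparisons it was so for 0 of the 8, against 0.704% to 16.4% of all genes. DESeq2 and limma voom also called none of the 8, and their counts over all genes are given with the alternatives below.

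Where no gene of the table was called, unadjusted p was under 0.05 for 87 genes with Dox in the independent tumours, 419 for evolving against dependent tumours and 573 for independent against evolving tumours with Dox. DESeq2 called 0, 64 and 94 genes in these comparisons and limma voom 0, 0 and 1. Nrarp was the 1 of 8 with the same direction in all 3 evolving tumours, where 34.9% of all genes had it, and Ptcra and Myc were the 2 of 8 in the independent tumours, where 17% of all genes had it. With Dox against without it in the evolving tumours, ranges did not overlap for 0 of the 8, against 19% of all genes. In the comparisons of independent tumours with dependent tumours, with evolving tumours, and with evolving tumours with Dox, ranges did not overlap for 0 of the 8, against 27.7%, 23.5% and 9.64% of all genes.

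The median estimate of the 8 genes with Dox was 0.10 in evolving tumours, with 4 estimates positive, and −0.01 in independent tumours, with 3 positive, and the medians of all genes were −0.00 and 0.01. The difference between these responses had a median of −0.39 over the 8, with 6 negative. Without Dox it was 0.24 for evolving against dependent tumours (5 positive), 0.34 for independent against dependent tumours (5 positive) and 0.15 for independent against evolving tumours (7 positive). With Dox it was −0.02 for independent against evolving tumours. The medians of all genes were 0.003 for the difference and −0.008 with Dox. Without Dox they were 0.013, 0.031 and 0.023 in the order above. The median size of the difference between the responses, whatever its sign, was 0.29 over all genes. These comparisons share libraries, and their medians are not independent of each other.

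**Figure D3:**
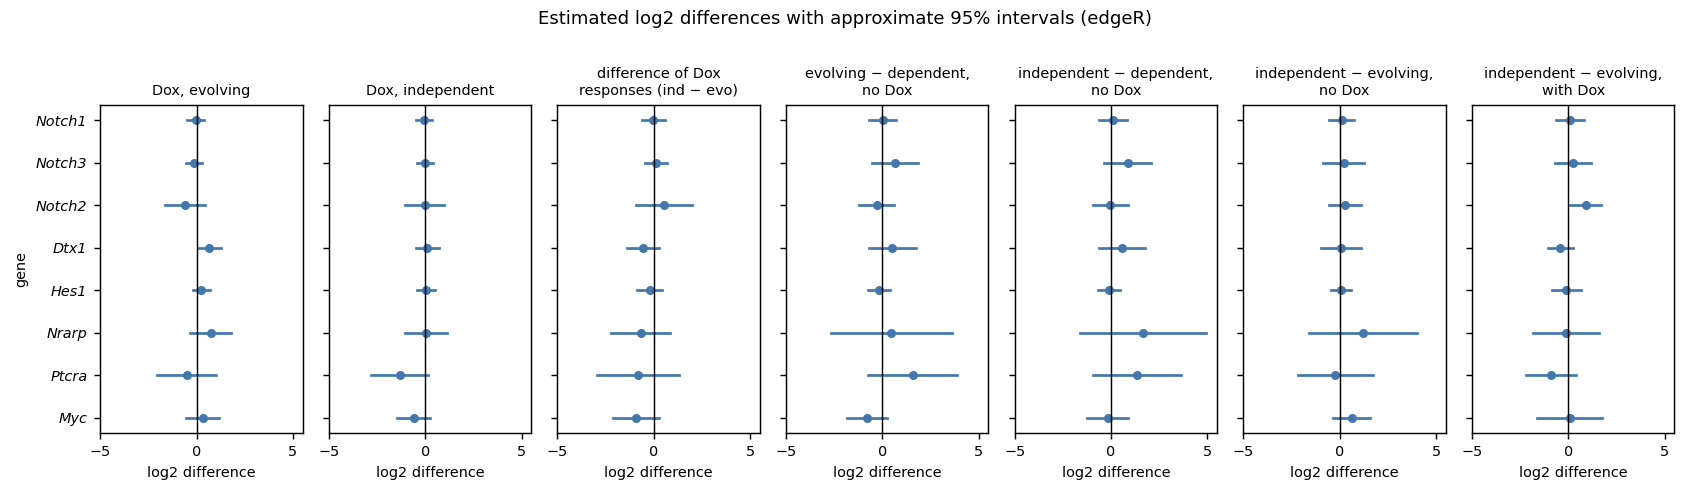
Log2 differences of the 8 genes in 7 comparisons (points) with approximate 95% intervals (lines) from edgeR. The intervals of Notch1 and Hes1 are narrow, those of Nrarp and Ptcra wide. The interval of Dtx1 lies above 0 with Dox in the evolving tumours, and that of Notch2 for independent against evolving tumours with Dox, and neither passed after adjustment.

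The rest of the pathway was read from 6 lists of Notch genes, 69 genes without the 8 above, of which 58 are in the table. With Dox in the evolving tumours 1 of the 58 fell, Cdk6, and none rose, where 2.13% of all genes were called. In the other 6 comparisons edgeR called none of them. Unadjusted p was under 0.05 for 8 of the 58 with Dox in evolving tumours, where 16.7% of all genes were, for 1 in independent tumours (0.704% of all genes) and for 4 in the difference (9.53%). Without Dox 57 were tested, and the numbers were 2 for evolving against dependent (3.39% of all genes), 6 for independent against dependent (13.2%) and 9 for independent against evolving tumours (16.4%). That last contrast under Dox had 7 of 57 (4.74%).

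Cdk6, a G1 cell cycle kinase and Notch target, had 397 CPM without and 231 CPM with Dox in VTL-153, 1008 and 341 CPM in VTL-25, and 844 and 323 CPM in VTL-21. All 3 were lower with Dox, and the groups did not overlap, as for 19% of all genes. The change was −1.24 (SE 0.22, adjusted p = 0.0466 by edgeR). The adjusted p was above 0.05 with any 1 of the 6 tumours left out, from 0.0596 to 0.187, and it was 0.319 with no replicate block. The independent tumours had Cdk6 at 237 and 173 CPM in VTL-44, 510.2 and 679.9 CPM in VTL-33, and 579 and 506 CPM in VTL-81.

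Ligands were sparse in the table. Of the 6 listed ligand genes only Jag2 has an entry, at 4.55 to 26.1 CPM, and Dll1, Dll3, Dll4, Jag1 and Dlk1 have none. The fourth receptor gene, Notch4, has none either. Every gene of the table had at least 1 CPM in at least 2 libraries. Of 15 genes for receptor processing and glycosylation 14 are listed, all 16 of the RBPJ complex and its corepressors, 12 of 13 for receptor turnover, and 15 of 18 further targets. Hes5, Hey1 and Hey2 are the targets with no entry. Median estimates with Dox in the evolving tumours were 0.20 for processing, 0.09 for the RBPJ complex, 0.05 for turnover and 0.03 for further targets.

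Pathway genes with the smallest p of their lists lay on either side in the independent tumours, and none passed. Of the 6 with an unadjusted p under 0.05 against dependent tumours 4 were higher and 2 lower, and of the 7 against evolving tumours with Dox 2 were higher and 5 lower. Maml3, a Mastermind-like coactivator, had higher estimates in independent tumours, by 1.32 over dependent (SE 0.37, adjusted p = 0.208) and by 1.39 over evolving tumours with Dox (SE 0.26, adjusted p = 0.974). Heyl, a Hes-related repressor, had 60.0 and 60.3 CPM in the dependent tumours, 50.9 to 147 CPM in evolving and 101 to 212 CPM in independent tumours without Dox. Its difference of independent from dependent tumours was 1.49 (SE 0.50, adjusted p = 0.281). Ranges of these classes did not overlap for Heyl, as for 27.7% of all genes. Lfng, a glycosyltransferase that tunes the ligand preference of Notch, had 0.187 and 1.52 CPM in dependent tumours, 0.315 to 1.44 CPM in evolving and 2.17 to 7.89 CPM in independent tumours without Dox. The difference of independent from evolving tumours was 2.66 (SE 0.95, adjusted p = 0.238). Lfng lay near the floor in dependent and evolving tumours without Dox. Ranges of independent and evolving tumours did not overlap there, as for 23.5% of all genes. Pofut1, which adds fucose to Notch receptors, was lower in all 3 independent tumours without Dox, at 35.9 to 49.7 CPM against 63.2 and 73.2 CPM in the dependent tumours, a gap that 27.7% of all genes had (−0.62, SE 0.19, adjusted p = 0.232). Ccnd3, a D-type cyclin of the G1 phase, had 200.2 to 378 CPM in independent and 511 to 749.5 CPM in evolving tumours with Dox (−1.17, SE 0.28, adjusted p = 0.974). Trib2, a pseudokinase gene that Notch1 activates in this leukaemia, had 108.5 to 136 CPM and 223 to 386 CPM in the same groups (−1.45, SE 0.26, adjusted p = 0.974). For Ccnd3 and Trib2 these groups did not overlap, as for 9.64% of all genes.

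Of the 15 further targets, 4 had an unadjusted p under 0.05 with Dox in the evolving tumours, where 16.7% of all genes had it. These were Cdk6, Il7r and Il2ra with lower and Trib2 with higher levels. The last 3 were chosen after their values were seen. Il2ra and Il7r encode cytokine receptor chains of early thymocytes. Il2ra stood at 1572 and 1281 CPM in VTL-19 and VTL-24. VTL-153 had 1498 CPM without and 230.4 CPM with Dox, VTL-25 had 1488 and 45.5 CPM, and VTL-21 had 955 and 558 CPM, a change of −2.81 (SE 0.93, adjusted p = 0.199 by edgeR). Of the independent tumours, VTL-81 had 1.94 and 3.93 CPM, VTL-33 had 140.3 and 35.5 CPM, and VTL-44 had 462 and 264 CPM. Il7r had 60.3 and 8.80 CPM in VTL-153, 70.8 and 1.49 CPM in VTL-25, and 84.7 and 11.9 CPM in VTL-21 (−3.61, SE 0.98, adjusted p = 0.132). Trib2 had 162 and 386 CPM in VTL-153, 102 and 374 CPM in VTL-25, and 148 and 223 CPM in VTL-21 (1.24, SE 0.36, adjusted p = 0.1502). The 3 genes had no overlap between the states, as 19% of all genes, and the same direction in 3 of 3 tumours, as 34.9% of all genes, and none passed. Without VTL-25 the estimates were −1.73 for Il2ra, −2.80 for Il7r and 0.93 for Trib2, and without VTL-153 they were −2.90, −4.13 and 1.22.

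**Figure D4:**
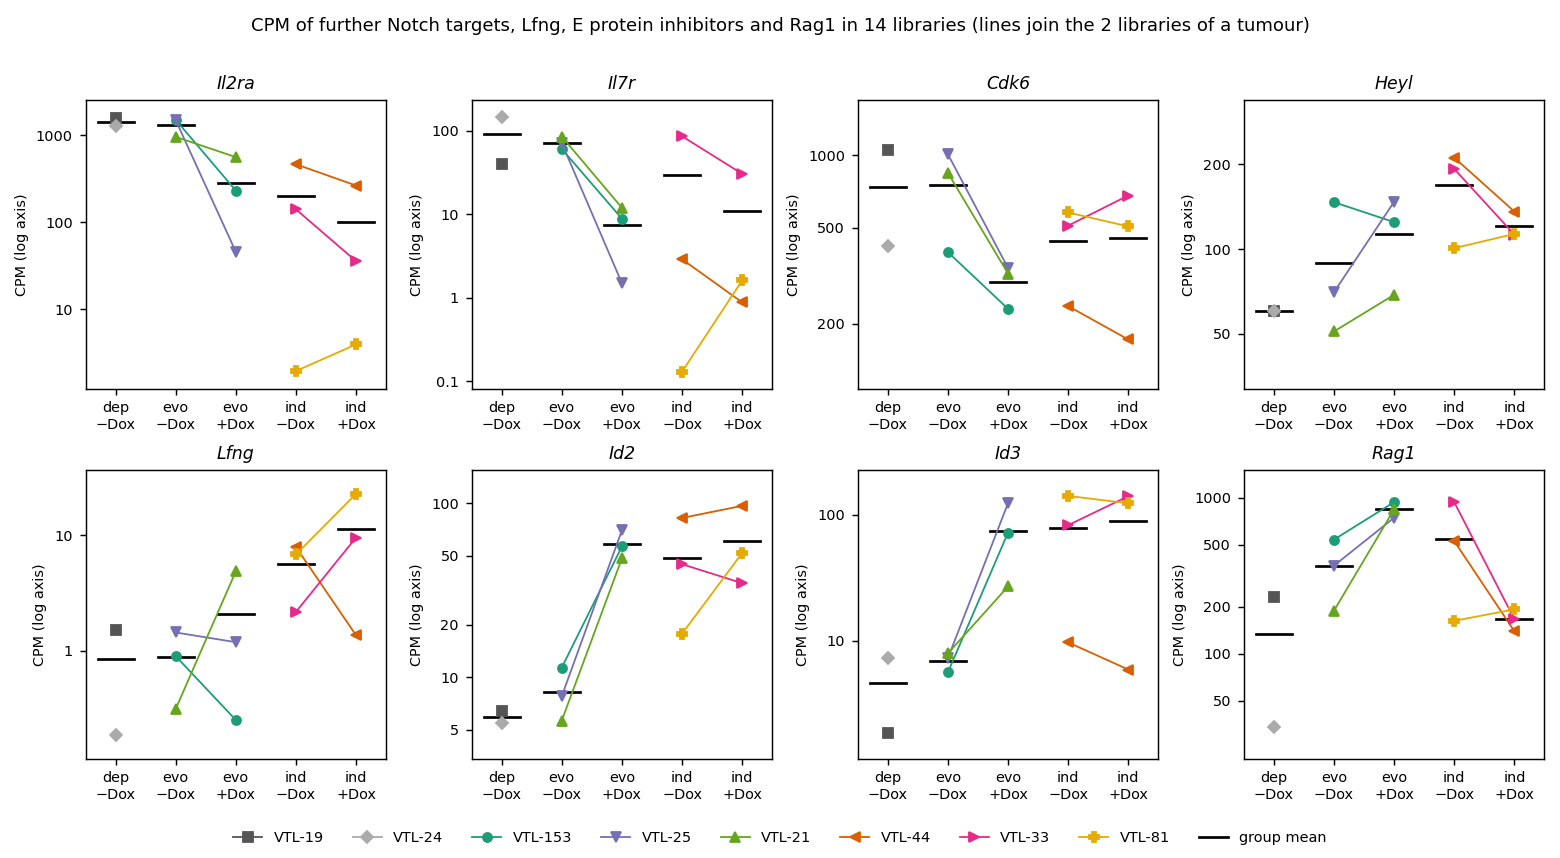
CPM (log axis) of 8 further genes by class and Dox, with symbols for tumours, lines joining the 2 libraries of a tumour and bars for group means. Id2 and Id3 are higher and Cdk6, Il2ra and Il7r lower with Dox in all 3 evolving tumours, and Il2ra is lowest in VTL-81 (1.94 CPM).

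The genes around Ptcra were read from lists of the pre-T cell receptor with the recombinase, and of E proteins with their inhibitors and the Ikaros family. E proteins are basic helix-loop-helix activators of Ptcra, and the Id proteins block their binding to DNA. Of 11 genes in the E protein list 2 rose with Dox in the evolving tumours, Id2 and Id3, and none fell, where 2.13% of all genes were called in either direction. Id2 had 11.4 CPM without and 56.4 CPM with Dox in VTL-153, 7.81 and 69.8 CPM in VTL-25, and 5.66 and 48.2 CPM in VTL-21, a change of 2.85 (SE 0.39, adjusted p = 0.0212 by edgeR). Id3 had 5.60 and 72.2 CPM, 7.25 and 124 CPM, and 7.91 and 27.0 CPM in the same order, a change of 3.21 (SE 0.53, adjusted p = 0.0388). The groups overlapped for neither gene, against 19% of all genes without overlap. The adjusted p of Id2 was 0.095 without VTL-25, 0.0546 without VTL-153 and 0.0566 with no replicate block, and it was at the threshold without VTL-44. Id3 kept its call without VTL-21 alone, and its adjusted p otherwise ran from 0.0612 without VTL-33 to 0.138 without VTL-25, and was 0.238 with no replicate block. In the same tumours Ptcra was lower with Dox in VTL-153 and VTL-25 and higher in VTL-21.

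None of the 12 genes of the pre-T cell receptor list passed in any comparison, while unadjusted p was under 0.05 for 5 of them with Dox in the evolving tumours, where 16.7% of all genes were. Rag1, a subunit of the recombinase, had the smallest p of the list for independent against evolving tumours with Dox. It stood at 139.6 CPM in VTL-44, 167 CPM in VTL-33 and 193 CPM in VTL-81, and at 744 CPM in VTL-25, 842 CPM in VTL-21 and 937 CPM in VTL-153. The groups did not overlap, as for 9.64% of all genes, and the difference of −2.35 (SE 0.19) had an adjusted p of 0.0948 by edgeR. It was −2.24 without VTL-153 and −2.43 without VTL-25.

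Genes of the Myc network and genes known to be driven by MYC, such as those for nucleolar proteins and nucleotide synthesis, had no member past the threshold in any comparison. With Dox the 20 MYC-driven genes had a median change of 0.16 in evolving tumours, with 15 positive, and of −0.18 in independent tumours, with 16 negative, against −0.00 and 0.01 over all genes. Unadjusted p was under 0.05 for 3 and 1 of them, against 16.7% and 0.704% of all genes. The 3 in evolving tumours did not share a direction, with Tert (−0.76) and Cdk4 (−0.50) lower and Npm1 (0.46) higher with Dox. The median difference between the responses was −0.34, with 16 of 20 negative. Myc itself had estimates of 0.32 and −0.60 with Dox in the same classes, which changed with 1 tumour left out as given above. Against dependent tumours without Dox, Myc had −0.80 in evolving and −0.18 in independent tumours. The medians of the 20 genes there were −0.01 and 0.15. For independent against evolving tumours Myc had 0.62 without and 0.06 with Dox, and the medians were 0.17 and −0.17. A link of Myc to these genes was not tested. Of the 11 genes of the Myc network, which includes Max and the Mxd repressors, 10 were tested for Dox, with medians of −0.11 in evolving and −0.02 in independent tumours.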

How the data were processed

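The submitters' processing notes name STAR 2.5.2b, featureCounts and the mm10 genome for the reads of the 14 libraries. The annotation, strand setting and filters are not given in the sources used here. The deposited values used here are raw counts per gene, whole numbers that the authors had not normalised. Another 42 columns of per-sample values were not used. Positions come from GENCODE M21, as do the exon lengths (union of all exons) behind CPM per kilobase.

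Counts were tested over the whole table with edgeR 4.0.16 (TMM factors, default low-count filter with minimum count 10, robust quasi-likelihood fit, Benjamini-Hochberg adjustment over all genes, threshold 0.05) in R 4.3.3. An adjusted p with no tool beside it is from edgeR. The Dox comparisons used 12 libraries of 6 tumours with tumour as a block, the class comparisons the 8 libraries without or the 6 with Dox. SE is the size of the estimate over the square root of its F statistic, and intervals are approximate. Replicates carry separate tumour numbers. In the class comparisons p-values measure the spread of levels between tumours. In the Dox comparisons they measure the spread between tumours in the change with Dox. The tests were tried on simulated counts with planted changes, built from overall gene means with no tumour effects. Such counts cannot show how the tests behave with paired or related tumours.

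The labels give both libraries of a tumour the same tumour number, and this was taken as the pairing. Partners' deviations from group means correlated across genes at 0.0166 in VTL-25, 0.151 in VTL-21 and 0.188 in VTL-153, and at 0.563 in VTL-81, 0.645 in VTL-44 and 0.716 in VTL-33. In VTL-25 the leading beta segment also differed between the libraries, so its pairing rests on the number alone. The fit shares each gene's spread between both classes.

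The 8 genes were always named. From each pathway list, genes past the threshold could be named, up to 4 with the smallest p, and otherwise up to 2 with the smallest p as not passing. For each of the 8 genes the 3 others with the highest correlation over libraries were named. The members and lists were chosen with earlier results of these data known. The alternatives tried were DESeq2 1.42.0, voom of limma 3.58.1, RLE size factors, no filter, a minimum count of 50, no replicate block, and each tumour left out in turn.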

Additional observations from a re-analysis of the deposited data

How the results depend on the processing

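Across 14 alternatives none of the 8 genes passed in any comparison, and 629 of 688 values kept their direction. Counts of called genes over the table moved. With Dox in the evolving tumours 263 became 73 with no replicate block, 426 by limma voom and 1314 by DESeq2, and 49 to 347 with 1 tumour left out. For the difference of the Dox responses 15 became 1 with no replicate block, 69 by limma voom and 549 by DESeq2, and 0 to 58 with 1 tumour left out. In the independent tumours the count stayed at 0 in these fits. For evolving against dependent tumours 0 became 64 by DESeq2, and 0 to 1 with 1 tumour left out. For independent against dependent tumours 12 became 791 by DESeq2 and 0 by limma voom, and 2 to 73 with 1 tumour left out. For independent against evolving tumours without Dox 32 became 1068 by DESeq2 and 7 by limma voom, and 3 to 144 with 1 tumour left out. With Dox 0 became 94 by DESeq2 and 1 by limma voom, and 0 to 4 with 1 tumour left out. The causes were not tested. The block for tumour changed no call among the 8 genes.

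With Dox in the independent tumours, Notch3 turned to 0.0004 with RLE size factors, 0.0003 by DESeq2 and 0.0048 by limma voom, Nrarp to −0.50 with no replicate block and −0.45 by limma voom, and Notch2 to 0.013 with no replicate block. For evolving against dependent tumours Notch1 turned to −0.0087 with RLE size factors and by DESeq2 and to −0.0048 with a minimum count of 50. For independent against evolving tumours with Dox Myc turned to −0.45 by limma voom.

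With 1 tumour left out in turn, 49 values changed direction, and the ranges that follow include 0. With Dox in the evolving tumours they were −0.175 to 0.060 for Notch1, −0.29 to 0.064 for Notch3 and −1.27 to 0.26 for Ptcra. In the independent tumours they were −0.245 to 0.084 for Notch1, −0.29 to 0.43 for Notch2, −0.091 to 0.107 for Notch3, −0.088 to 0.21 for Hes1, −0.014 to 0.20 for Dtx1 and −0.59 to 0.45 for Nrarp. The difference of the responses ran from −0.20 to 0.13 for Notch1, −0.072 to 0.28 for Notch3 and −0.42 to 0.0075 for Hes1. Evolving against dependent tumours gave −0.31 to 0.41 for Notch1, −0.0084 to 0.76 for Dtx1 and −0.43 to 3.295 for Nrarp. Independent against dependent tumours gave −0.22 to 0.50 for Notch1, −0.22 to 0.19 for Notch2, −0.31 to 0.0039 for Hes1 and −0.52 to 0.16 for Myc. Independent against evolving tumours without Dox gave −0.079 to 0.25 for Notch1, −0.040 to 0.50 for Notch2, −0.46 to 0.45 for Notch3, −0.12 to 0.25 for Hes1, −0.42 to 0.58 for Dtx1 and −0.51 to 0.32 for Ptcra. With Dox the ranges were −0.18 to 0.33 for Notch1, −0.23 to 0.51 for Notch3, −0.43 to 0.17 for Hes1, −0.55 to 0.38 for Nrarp and −0.49 to 0.59 for Myc. Where 1 dependent tumour was left, it was assumed to vary like the others.

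Groups of 2 or 3 tumours limit these tests. Nrarp had the fewest counts of the 8 genes, with 33 in VTL-24 and 39 and 91 in VTL-81 without and with Dox. These libraries held 21599637, 22947514 and 18214415 counts in all, and Nrarp stood there at 1.54, 1.68 and 5.03 CPM.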

Other observations

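Among 9858 genes with a mean log2 CPM of at least 2, the genes whose log2 CPM followed each of the 8 most closely over the 14 libraries were found by Pearson correlation, as a description. The libraries share tumours and so are not independent. Dtx1 was followed by C2cd2l (0.94), Tor1aip1 (0.93) and Setd4 (0.90), and Notch3 by Thnsl2 (0.92), Slc6a6 (0.92), a taurine transporter, and Sytl3 (0.91). Myc was followed by Zfp94 (0.92), Dpagt1 (0.91), the enzyme that starts N-glycan precursor synthesis, and Ppil3 (0.90), and Notch1 by Slc12a4 (0.88), Tmem219 (0.84) and Zcchc9 (0.81). Lyz2, the lysozyme gene of macrophages and neutrophils, was among the nearest to Notch2 (0.82), beside Ccdc50 (0.83) and Dock5 (0.82). Lyz2 is part of the myeloid sum set beside Notch2 above, so it is no separate observation. Nrarp was followed by Akap17b (0.84), Ccdc84 (0.82) and Taf2 (0.81), Ptcra by Zfp932 (0.82), Ttc12 (0.82) and Nrp1 (0.81), a semaphorin receptor, and Hes1 by Wdr19 (0.80), Drg1 (0.76) and Eri2 (0.76).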
